A study of Mus musculus with 6 samples.

Results

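Methylation after knockdown of Dnmt3a was set directly against methylation after knockdown of Dnmt3b in E14 mouse embryonic stem cells, to ask which sequence depends on one de novo enzyme more than on the other. The members are the 519762 autosomal cytosines of CpG sites with a level in both libraries, which are 70.9% of the 733073 with a level in any library of the series. They were matched on chromosome, position and strand, and the control library takes no part in the difference. Every library is from E14 embryonic stem cells and every group is 1 library: shDnmt3a (short hairpin RNA, shRNA, against Dnmt3a), shDnmt3b (shRNA against Dnmt3b), and, as levels from outside the comparison, shControl (control shRNA), shTet1_Tet2 (shRNAs against Tet1 and Tet2), shDnmt1 (shRNA against Dnmt1) and shDnmt3a_Dnmt3b (shRNAs against both de novo enzymes, called the double knockdown). Reduced representation bisulfite sequencing (RRBS) reads the fragments that MspI releases by cutting at CCGG, so CpG-rich sequence is over-represented. It reads 5-methylcytosine and 5-hydroxymethylcytosine alike as methylated.

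DNMT3A and DNMT3B add methyl groups to unmethylated DNA, whereas DNMT1 copies methylation onto the new strand after replication and the TET enzymes oxidise 5-methylcytosine. In embryonic stem cells both de novo enzymes are present, and their loss is known to let methylation drift down over cell divisions. Purified DNMT3A is known to act best on a CpG followed by a pyrimidine (C or T), and purified DNMT3B on a CpG followed by a purine (A or G). Both enzymes help to silence promoters of germline genes, whose products serve meiosis, spermatogenesis and the control of transposons and are not needed in somatic cells.

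The 6 libraries listed from 445016 (shDnmt1) to 604227 (shTet1_Tet2) cytosines, 583020 in shDnmt3a and 573439 in shDnmt3b. Another 49245 autosomal cytosines had a level in shDnmt3a but not in shDnmt3b, with a mean of 37.1%, and 40020 had one in shDnmt3b but not in shDnmt3a, with a mean of 35.9%. No read counts accompany the levels, so the depth is unknown and no counting interval can be given. With 1 library per group there is no replicate error and no test. The SD given below is the spread over the 19 autosomes, or over clusters where said. It describes evenness along the genome and not variation between cultures. No RNA or protein level of either target was used here, so a difference in how far each enzyme was depleted, a difference between these 2 libraries and a difference in what each enzyme does cannot be told apart.

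Sequences of 6 promoters that carry the main contrasts are shown first. Each is the 250 bases before the RefSeq start site on the gene's own strand (GRCm38.p6), and the capitals mark each CpG with a level in both libraries on at least 1 strand. Asz1 (chr6:18109062-18109311, minus strand), needed for the transposon-silencing small RNAs of germ cells, is a germline promoter at which all 11 measured cytosines were lower in shDnmt3a:
Asz1: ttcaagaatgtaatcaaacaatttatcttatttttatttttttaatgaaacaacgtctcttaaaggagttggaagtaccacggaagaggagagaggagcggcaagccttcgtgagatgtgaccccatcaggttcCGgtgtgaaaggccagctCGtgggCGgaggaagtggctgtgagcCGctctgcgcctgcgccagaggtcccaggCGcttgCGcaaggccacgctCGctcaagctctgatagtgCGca
Slc25a31 (chr3:40708621-40708870, plus strand), a testis-specific ADP/ATP carrier, has the most measured cytosines of the germline genes examined:
Slc25a31: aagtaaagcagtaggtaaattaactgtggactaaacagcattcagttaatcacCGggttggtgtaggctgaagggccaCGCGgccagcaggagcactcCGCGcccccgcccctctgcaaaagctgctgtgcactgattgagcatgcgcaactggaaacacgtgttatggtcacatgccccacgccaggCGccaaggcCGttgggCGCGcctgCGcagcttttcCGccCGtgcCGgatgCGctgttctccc
Hormad1 (chr3:95559427-95559676, plus strand), a protein of the meiotic chromosome axis, mixes sites of very different level:
Hormad1: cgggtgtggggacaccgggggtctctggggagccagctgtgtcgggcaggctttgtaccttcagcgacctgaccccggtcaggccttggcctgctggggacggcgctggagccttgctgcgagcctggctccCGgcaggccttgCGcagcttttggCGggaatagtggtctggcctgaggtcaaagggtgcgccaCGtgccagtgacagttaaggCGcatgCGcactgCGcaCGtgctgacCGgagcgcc
Btbd18 (chr2:84658829-84659078, plus strand), a nuclear factor of spermatocytes, holds a site of the 5-base context with the widest difference genome-wide:
Btbd18: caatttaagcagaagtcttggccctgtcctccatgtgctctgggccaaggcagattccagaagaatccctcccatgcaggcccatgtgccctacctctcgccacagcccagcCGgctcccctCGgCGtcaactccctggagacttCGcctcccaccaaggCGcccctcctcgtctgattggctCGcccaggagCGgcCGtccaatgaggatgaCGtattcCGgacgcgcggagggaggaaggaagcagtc
Cck (chr9:121495695-121495944, minus strand), the gene of the peptide hormone cholecystokinin, had one of the widest differences outside the germline list:
Cck: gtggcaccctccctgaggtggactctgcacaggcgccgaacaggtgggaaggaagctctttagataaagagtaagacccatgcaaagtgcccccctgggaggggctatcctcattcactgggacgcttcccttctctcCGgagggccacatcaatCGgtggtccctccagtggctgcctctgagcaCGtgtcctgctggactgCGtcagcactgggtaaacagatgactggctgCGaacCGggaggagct
Fkbp6 (chr5:135349914-135350163, minus strand), a co-chaperone of the germline small RNA pathway, is the methylated germline promoter at which the 2 libraries lay closest:
Fkbp6: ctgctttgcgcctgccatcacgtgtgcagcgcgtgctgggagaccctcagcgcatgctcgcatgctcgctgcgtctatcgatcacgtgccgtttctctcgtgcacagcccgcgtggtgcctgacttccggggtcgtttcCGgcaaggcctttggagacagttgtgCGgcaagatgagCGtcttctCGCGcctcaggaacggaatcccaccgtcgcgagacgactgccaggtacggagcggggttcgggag

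Methylation was lower in shDnmt3a than in shDnmt3b over the genome as a whole. The mean level was 27.7% in shDnmt3a and 32.9% in shDnmt3b, a difference (shDnmt3a minus shDnmt3b, here and throughout) of -5.20 ± 0.29 percentage points (SD over 19 autosomes). All 19 autosomes had a lower mean in shDnmt3a, from -5.70 to -4.59 points. Of the 519762 cytosines, 49641 (9.55%) were lower in shDnmt3a by at least 20 points, while 1723 (0.331%) were higher by as much. Not every member has a level in the other libraries. Over the 369208 that do, the mean was 21.6% in shDnmt3a, 26.1% in shDnmt3b, 25.7% in shControl, 27.1% in shTet1_Tet2, 22.7% in the double knockdown and 5.38% in shDnmt1. On this shared set shDnmt3b lay between shControl and shTet1_Tet2, and the double knockdown lay between the 2 single knockdowns. Elsewhere, a level given for another library is over those of the named cytosines that it lists.

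The size of the difference depended on how methylated the site was. Sites were classed by the mean of shControl and shTet1_Tet2, the libraries without a methyltransferase shRNA, which is called the reference level. At the 72682 intermediate cytosines (reference 20 to 80%) shDnmt3a stood at 38.9% and shDnmt3b at 56.1%, a difference of -17.2 ± 0.50 points. At the 121723 high cytosines (above 80%) the levels were 81.4% and 88.7%, a difference of -7.30 ± 0.49 points. At the 283274 low cytosines (below 20%) they were 0.555% and 1.60%, so that shDnmt3a held 34.7% of the shDnmt3b level. Each class was lower in shDnmt3a on 19 of 19 autosomes, and 40.4% of intermediate cytosines were lower by at least 20 points against 9.90% of high ones and 0.595% of low ones. The other 42083 cytosines lacked a level in 1 or both reference libraries and were not classed.

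In finer steps of the reference level, shDnmt3b followed the reference and shDnmt3a bowed below it. The reference is a mean of 2 libraries that differed from each other. At intermediate cytosines shControl stood at 53.5% and shTet1_Tet2 at 59.3%, with shDnmt3b between them at 56.1%. At high cytosines they stood at 89.05% and 90.5%, both above shDnmt3b. Where the reference was 20 to 30%, shDnmt3b stood at 24.7% and shDnmt3a at 10.2%. Where it was 50 to 60%, shDnmt3b stood at 54.5% and shDnmt3a at 33.8%, the step with the widest difference (-20.7 ± 1.0 points). Where it was 80 to 90%, shDnmt3b stood at 85.7% and shDnmt3a at 76.3%. In relative terms the gap was widest at sites of low but measurable methylation. shDnmt3a held 40.2% of the shDnmt3b level where the reference was 0 to 1% (0.0872% against 0.217%), 30.95% at 1 to 2%, 31.2% at 2 to 5%, 41.5% at 20 to 30%, 61.9% at 50 to 60%, 89.0% at 80 to 90% and 97.7% at 99 to 100%. The odds of methylation in shDnmt3a divided by those in shDnmt3b were 0.402 in the first of these steps, 0.307 in the next and 0.608 in the last. Above a reference of 90% shDnmt3b also lay below the reference, at 90.9% where the reference averaged 92.4% and at 92.7% where it averaged 96.4%. These steps are chosen on the reference, and sites picked for an extreme level lie closer to the middle in any other library.

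**Figure D1:**
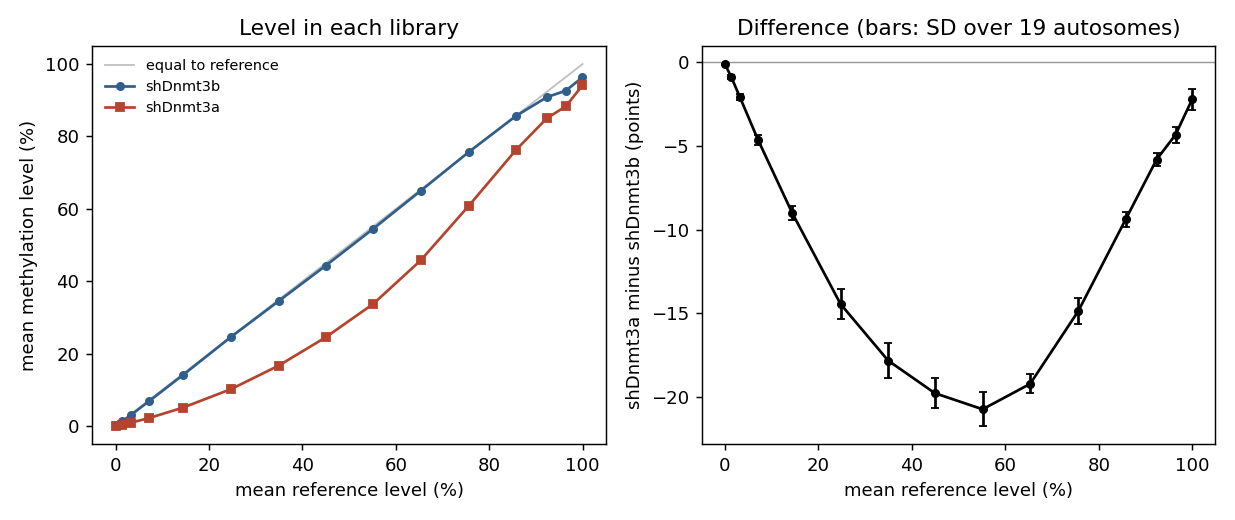
Left, mean methylation level (%) of the shDnmt3a and shDnmt3b libraries against the mean reference level (%, mean of shControl and shTet1_Tet2) in 15 steps, with a grey line where both are equal. Right, shDnmt3a minus shDnmt3b in percentage points with the SD over 19 autosomes as bars. shDnmt3b lies along the grey line up to a reference of 90%, and the difference is widest, -20.7 points, at a reference of 50 to 60%.

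The double knockdown was less far below shDnmt3b than shDnmt3a alone was. Over the 67458 intermediate cytosines with a level in all 3 libraries it stood at 42.8%, between shDnmt3a (38.6%) and shDnmt3b (55.9%). At 111384 high cytosines it stood at 83.8%, again between 81.3% and 88.7%. At 274791 low cytosines it stood at 0.618% against 0.547% and 1.58%. In each of these 3 classes the library with both shRNAs was above the one with the Dnmt3a shRNA alone on 19 of 19 autosomes.

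The bases beside the CpG went with the size of the difference. Among intermediate cytosines, with the distribution over reference steps made equal, the difference was -20.5 points where C followed the CpG, -20.3 for T, -16.9 for A and -15.9 for G. Pyrimidines after the CpG thus had a difference wider than purines by -4.29 ± 0.78 points, on 19 of 19 autosomes. Over all 10 reference steps together, most of whose cytosines are unmethylated, the same contrast was -1.30 ± 0.17 points. The base before the CpG gave the mirror image: the difference was -20.2 for A, -20.2 for G, -16.7 for T and -16.0 for C, and the contrast of purine against pyrimidine was -4.11 ± 0.82 points. The base before a CpG on one strand is the complement of the base after it on the other, so these are 2 views of the same sites wherever methylation of the strands is alike. The contrast after the CpG was -4.21 points on the plus strand and -4.36 on the minus strand.

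MspI sites make up much of RRBS data and weigh on this contrast. The site CCGG had a difference of -15.1 points over 33858 intermediate cytosines, and without it the contrast after the CpG was -2.49 ± 0.71 points and the contrast before it -2.24 ± 0.84, each lower on 19 of 19 autosomes. Without CCGG, the difference by base after the CpG was -20.5 points for C, -20.3 for T, -18.8 for G and -16.9 for A. By base before the CpG it was -20.2 for A, -20.2 for G, -19.1 for C and -16.7 for T. The order of A and G after the CpG, and of C and T before it, was thus reversed without MspI sites. Counting pyrimidines on both strands at once separates the sites further. With MspI sites left out, CpGs with a purine after them on both strands differed by -15.2 ± 0.87 points (7621 cytosines), those with a pyrimidine on 1 strand by -19.9 ± 0.61 (21563) and those with a pyrimidine on both by -20.7 ± 1.2 (9640). Most of the step therefore lay between none and 1. It was present at every reference level above 10%: where the reference was 50 to 60%, the 3 kinds of site differed by -18.0, -23.5 and -24.97 points.

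**Figure D2:**
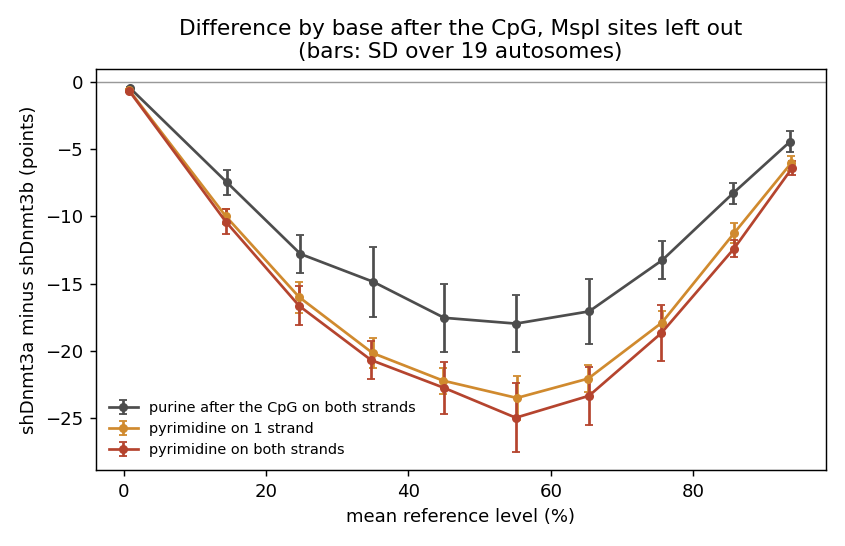
shDnmt3a minus shDnmt3b (percentage points) against the mean reference level (%) for CpGs outside MspI sites, split by how many of the 2 strands have a pyrimidine (C or T) after the CpG. Bars are the SD over 19 autosomes. Sites with a purine after the CpG on both strands have the smallest difference in every step, -18.0 points at a reference of 50 to 60% against -24.97 for a pyrimidine on both strands.

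By the 4 bases around the CpG, the 4 smallest differences were TCGA (-12.2 points), CCGG (-15.1), TCGG (-15.9) and CCGA (-16.4), which are the 4 cores with a purine after the CpG on both strands. The widest were ACGT (-22.2), GCGT (-21.7), ACGC (-21.7) and CCGC (-21.4). GCGC, with a pyrimidine on both strands, was an exception at -18.4. The reference levels of these cores were between 50.2% (GCGC) and 58.7% (ACGT), so cores of like starting level differed: TCGA went from 56.4% in shDnmt3b to 44.2% in shDnmt3a, and ACGT from 59.5% to 37.3%. In shDnmt3b itself the shift was slight and opposite to that in shDnmt3a, with levels above the reference by 1.22 points where C followed the CpG and 0.427 where T did, and below it by -0.434 for A and -0.706 for G. These offsets were about the size of their own spread over autosomes, which was 0.718 to 0.924 points.

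Among the 64 contexts of 5 bases, the widest difference was at TACGT, 30.1% in shDnmt3a against 55.8% in shDnmt3b over 215 cytosines, which is -25.8 ± 4.7 points. TACGC (-25.5), GACGT (-24.6) and GACGG (-24.2) followed. The smallest was at ATCGA, 45.5% against 55.1% over 355 cytosines or -9.66 ± 2.9 points, before GTCGA (-11.3), TTCGA (-11.7) and CCCGG (-12.7). All 64 contexts were lower in shDnmt3a, and 69.8% of the TACGT cytosines but 18.3% of the ATCGA cytosines were lower by at least 20 points. The second base before the CpG spanned a smaller range than the bases next to it, with -18.9 points for G, -18.4 for T, -16.6 for A and -15.6 for C. Without MspI sites the values were -20.3 for G, -19.99 for T, -18.6 for C and -17.7 for A, so C was then no longer the smallest. In the Btbd18 promoter printed above, the 1 measured TACGT cytosine (minus strand, 36 bases before the start site) stood at 42.9% in shDnmt3a and 73.4% in shDnmt3b.

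Sites of different flank inside the same cluster were then compared, which holds the place in the genome alike. In 2972 clusters with both kinds, the difference at cytosines with a pyrimidine after the CpG was wider than at those with a purine by -3.67 points on average (SD 9.02 over clusters), and 67.4% of clusters had that direction. The pyrimidine sites had a reference level 3.37 points higher in these clusters. Without MspI sites the mean was -1.86 points (SD 9.87) over 1752 clusters, with 59.9% in that direction. In both cases the spread between clusters was larger than the mean. That spread also holds the error of single cytosines, so it cannot tell whether the shift was alike at every site.

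CpG density went with the difference in a class-dependent way. Density is the number of CpGs with a level in both libraries within 100 bp, the site itself included. At intermediate cytosines the difference was -14.03 ± 0.73 points for lone CpGs, -16.6 for 2, -18.0 for 3 to 4, -18.8 for 5 to 6 and -18.6 for 7 to 9. It was then -17.8 points for 10 to 14, and -13.4 for 15 to 19, where only 263 intermediate cytosines remained and the SD over autosomes was 8.0. Lone CpGs are nearly all MspI sites (98.9%), but with those left out the order up to 7 to 9 CpGs was much the same: -15.2 over the 117 remaining lone CpGs, then -18.3, -19.4, -19.6 and -19.2. High cytosines ran from -5.91 points for lone CpGs to -9.44 for 7 to 9. Low cytosines ran the other way in points, from -3.84 for lone CpGs to -0.207 for 20 or more. Their reference level fell from 6.52% to 0.347% over the same range. For lone CpGs they stood at 2.44% in shDnmt3a and 6.28% in shDnmt3b, and for 20 or more at 0.145% and 0.352%. In these data, then, intermediate and high CpGs with measured neighbours differed more than lone ones, up to 7 to 9 CpGs. Reference levels were not made equal here. Up to 7 to 9 CpGs they fell from 61.8% to 49.25% at intermediate cytosines and were 89.5% and 89.7% at the ends for high ones. Whether density matters apart from level was not tested.

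Highly methylated CpGs differed more when they lay near unmethylated sequence. Distance was taken to the nearest of 19682 low clusters, which are runs of at least 5 cytosines with gaps of at most 100 bp and a reference mean below 20%. At 501 to 1000 bp the 444 high cytosines stood at 72.2% in shDnmt3a and 85.1% in shDnmt3b, a difference of -12.9 ± 2.9 points. At 1001 to 2000 bp the difference was -10.2 ± 1.8 points (1645 cytosines), at 2001 to 5000 bp -9.41 ± 1.2, at 5001 to 20000 bp -8.67 ± 0.51 and beyond 20000 bp -6.74 ± 0.45 (90692). Over these steps the difference shrank with distance. Closer in, at 251 to 500 bp, only 76 high cytosines were left, with -12.4 ± 8.9 points.

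Reference levels also rise with distance, from 87.2% to 90.1% over those steps, and part of the trend goes with that. Among cytosines with a reference of 80 to 90% the difference was -14.2 points at 501 to 1000 bp and -8.83 beyond 20000 bp. With reference steps made equal, high cytosines within 2000 bp differed by -9.88 points and those beyond 20000 bp by -6.76, so that the near ones were wider by -3.12 ± 1.2 points, on 19 of 19 autosomes. Intermediate cytosines had no such gradient in raw points: their difference stayed between -16.2 and -17.5 points from 1 bp to beyond 20000 bp, though their reference level rose from 35.6% to 59.7%. They stood at 17.7% in shDnmt3a and 34.5% in shDnmt3b at 1 to 250 bp, and at 43.1% and 60.6% beyond 20000 bp. Reference steps were not made equal in this class, so a gradient at like reference level was not tested. Near the edge shDnmt3b was also below the reference at high cytosines, 85.1% against 87.2% at 501 to 1000 bp.

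**Figure D3:**
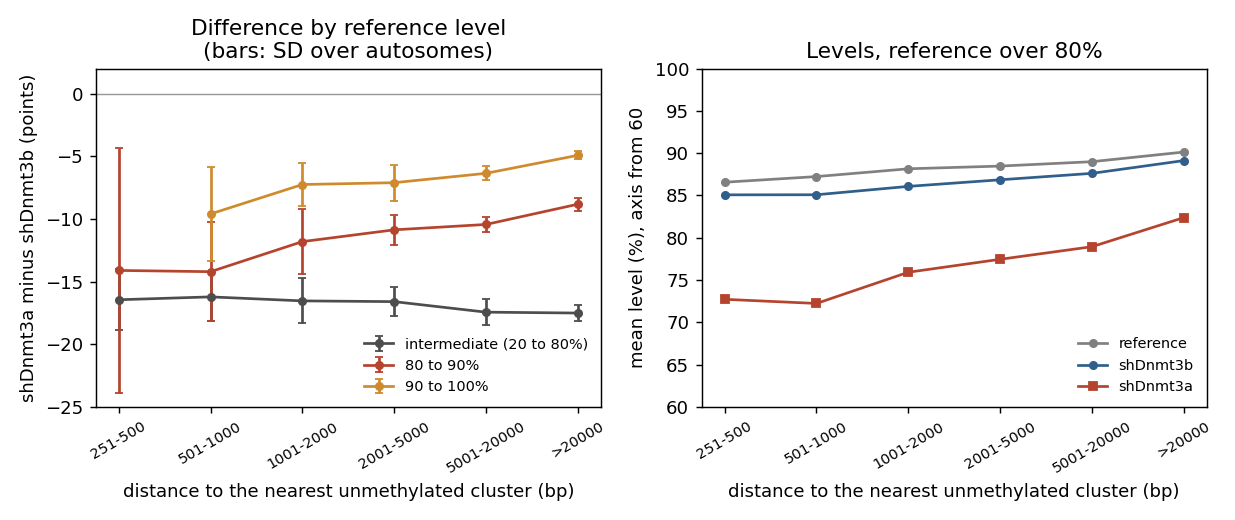
Left, shDnmt3a minus shDnmt3b (percentage points) by distance in bp to the nearest unmethylated cluster, for 3 ranges of reference level, with the SD over autosomes as bars. Right, mean levels (%, axis from 60) of the reference, shDnmt3b and shDnmt3a at cytosines with a reference above 80%. Cytosines at 80 to 90% go from -14.2 points at 501 to 1000 bp to -8.83 beyond 20000 bp, while intermediate ones lie between -16.2 and -17.5.

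Joined into clusters, the difference was almost wholly one-sided. The 519762 cytosines gave 30330 clusters of at least 5 cytosines (median 8 cytosines over 130 bp). A cluster was called when its mean differed by 20 points or more and 80% or more of its cytosines shared the direction. By that rule 1998 clusters (6.59%) were lower in shDnmt3a and 1 (0.0033%) was higher, and at 10 points 5710 (18.8%) were lower and 9 (0.0297%) higher. The calls comprised 1636 of 4318 intermediate clusters, 268 of 5416 high ones, 43 of 19682 low ones and 51 of 914 unclassed ones. At the edge of the rule the last lower cluster inside differed by -20 points and the first outside by -19.99, so the count marks a place in a continuous distribution. The median difference was -17.4 points over intermediate clusters and -7.05 over high ones.

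At the 1998 lower clusters the median level was 33.0% in shDnmt3a and 60.99% in shDnmt3b. In the libraries outside the comparison the medians were 56.3% in shControl, 63.7% in shTet1_Tet2, 41.4% in the double knockdown and 8.62% in shDnmt1. The reference was nearer to shDnmt3b than to shDnmt3a in 1865 of the 1947 such clusters with a reference. Of the 1959 with a level in the double knockdown, that library was below shDnmt3b in 1940, lay between the 2 single knockdowns in 1693 and at or below shDnmt3a in 247. Most lower clusters thus had the reference nearer to shDnmt3b than to shDnmt3a. They were picked for a wide gap between the 2 single knockdowns, so another library would often fall between them. Over all 4318 intermediate clusters the medians were 33.6% in shDnmt3a, 55.0% in shDnmt3b, 38.7% in the double knockdown and 55.6% in the reference. The order there was thus much the same without that choice. For scale, the same rule called 19 clusters lower and 54 higher between shDnmt3b and shControl, and 91 lower and 5 higher between shControl and shTet1_Tet2. Other pairs were one-sided too. In shDnmt3a 1302 clusters were lower and 0 higher than in shControl, and 2743 lower and 3 higher than in shTet1_Tet2. In the double knockdown 825 were lower and 1 higher than in shDnmt3b, and 4 lower and 98 higher than in shDnmt3a.

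The 6 lower clusters with the widest differences were chosen as extremes, and such values tend to shrink on repetition. On chr11:50990830-50990879 (mm9) all 6 cytosines were lower, with means of 11.7% and 66.7%; here shControl read 21.2% and shTet1_Tet2 36.1%, so shDnmt3b was the library that stood apart. On chr5:118112363-118112403 the levels were 36.5% and 91.2% (shControl 70.5%). On chr17:56715058-56715105 they were 32.6% and 83.3% (shControl 69.3%). At these next 2 clusters, unlike the first, it was shDnmt3a that lay farther from shControl. On chr13:98006965-98007082 the levels were 30.6% and 80.04% (shControl 72.3%), and on chr2:164964406-164964524 they were 11.5% and 60.7% (shControl 43.8%). On chr11:3388073-3388117 they were 41.4% and 90.7%, with shControl nearer to shDnmt3a at 52.6%. The chr5 and chr17 clusters and both on chr11 each had all their cytosines on the same strand, so these may share reads. None of the 6 overlapped a promoter that could be placed, and no other annotation of mm9 was used here.

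The 1 cluster called higher in shDnmt3a lay on chr15:96524343-96524453, with 55.7% in shDnmt3a and 29.5% in shDnmt3b. It was higher at 5 of 6 cytosines, by up to 52.7 points. shControl read 59.9% there, shTet1_Tet2 67.4% and the double knockdown 46.4%, so this is a place where shDnmt3b lay below all the libraries but shDnmt1 (5.25%). Of the 8 clusters higher by 10 to 20 points, 2 lay close together on chromosome 2. At chr2:174125974-174126021 the levels were 59.6% in shDnmt3a and 41.8% in shDnmt3b, with 57.4% in shControl, 27.2% in shTet1_Tet2 and 66.4% in the double knockdown. At chr2:174124809-174124857 they were 37.5% and 25.96%, with 31.9%, 23.7% and 40.02% in those 3 libraries. The double knockdown was thus above both single knockdowns at this pair of clusters. In the same region, the placed promoter of Gnas, of the imprinted list, has its first measured cytosine at chr2:174155535. That promoter was at 0% in shDnmt3a and shDnmt3b, so the promoter lists do not cover what was seen at this pair.

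Plus and minus strands are read from different molecules of a library, so agreement between them bears on read-level error, though not on variation between cultures. In clusters measured by 3 or more cytosines per strand, the plus strand alone was lower by 20 points or more in 805, and 794 of these were lower on the minus strand too, by a median of -20.4 points, 417 of them by 20 or more. Chosen on the minus strand, 841 gave 827 lower on the plus strand. Intermediate clusters not chosen for their difference were already lower on the minus strand in 1672 of 1724 cases, with a median of -17.4 points, so the direction repeats the general shift. In the other direction, the plus strand alone was higher by 10 points or more in 15 clusters, and 2 of them were higher on the minus strand. Of 12 chosen in the same way on the minus strand, 0 were higher on the plus strand.

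How local the difference is can be described at single sites. At the 1465 intermediate CpGs with both strands measured, the differences on the strands had a correlation of 0.372 (Pearson's r across CpGs, which share libraries) and differed from each other by an SD of 14.6 points. Between neighbouring intermediate cytosines on the same strand or the other, the correlation of differences was 0.470 at 2 to 10 bp and 0.208 at 61 to 100 bp. It was 0.0996 at 1001 to 5000 bp. Close neighbours are often on the same reads, so these values mix shared molecules with shared sequence.

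Gene promoters could be named where the listed 5-base contexts and their spacing matched a RefSeq promoter sequence exactly. Of 25748 autosomal genes, 6670 were placed, and 5041 had at least 5 cytosines with a level in both libraries. Promoters in RRBS are mostly unmethylated: 4783 had a reference below 20% and a median difference of 0. By the rule of at least 10 points with 80% of cytosines in that direction, 123 genes (2.44%) were lower in shDnmt3a and 0 were higher. At 15 points 71 (1.41%) were lower. Among the 126 with a reference of at least 20%, 80 (63.5%) were lower by 10 points, with a median of -14.3 points. The 91 intermediate promoters had a median of -16.9 points, about that of intermediate clusters in general, and the 35 high ones -6.68. The most positive difference of any promoter was 3.58 points.

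The germline list showed this at known genes. Of its 30 genes 14 were measured, and 9 were lower in shDnmt3a by at least 10 points, with a median over the 14 of -12.7 points against 0 over all 5041 promoters. Of the 10 with a reference of at least 20%, 7 were lower by at least 10 points, to be read against the 63.5% of all methylated promoters. The other 2 of the 9 were Rpl10l (reference 15.7%) and Sycp1 (no reference). Sycp1, a component of the synaptonemal complex, stood at 44.1% in shDnmt3a and 72.2% in shDnmt3b (-28.1 points, 6 cytosines), with no level in the other libraries. Asz1 stood at 50.3% and 77.6% (-27.3 points), with 68.3% in shControl, 73.9% in shTet1_Tet2, 64.0% in the double knockdown and 12.3% in shDnmt1. In both genes every cytosine was lower in shDnmt3a. The 6 Sycp1 cytosines all lie on the minus strand, from position 102740008 to 102740042 (mm9). They may thus come from the same reads and need not be separate measurements.

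Tuba3b, a testis alpha-tubulin with near-identical paralogs, stood at 70.6% and 93.0%, and its reads may be shared with those copies. Slc25a31 stood at 34.03% and 51.2% over 18 cytosines (-17.2 points), with 44.2% in shControl and 37.5% in the double knockdown. Hormad1 stood at 23.0% and 38.8%, and Mael, of the germline small RNA pathway, at 14% and 29.4%. At all 3 of these shControl lay between the knockdowns and nearer to shDnmt3b, with 36.6% at Hormad1 and 23.5% at Mael. Dazl, an RNA-binding protein of germ cells, stood at 66.8% and 80.3%, with 82.6% in shControl. Rpl10l, a testis-expressed retrogene of a ribosomal protein, stood at 4.70% and 16.7%, and Tex101, a germ cell surface protein, at 75.8% and 87.3%.

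Smaller differences were seen at Dmrtb1, a regulator of spermatogonia (15.5% and 23.2%), and Ddx4, the germline helicase Vasa (18.2% and 25.7%). Fkbp6 stood at 76.5% and 77.7%, a difference of -1.16 points, although shDnmt1 reached 19.01% there. Its 7 cytosines split by place and strand at once. The 5 upstream of the start site, all on the minus strand, ranged from -10.8 to 0.7 points. The 2 just downstream, both on the plus strand, were higher in shDnmt3a, by 5.8 and 14.1. Place and strand cannot be told apart here. Tdrkh (3.06% and 4.07%) and Cpeb1 (0.125% and 0.912%) were unmethylated in both. Germline promoters of like reference level had unlike differences, -1.16 points at Fkbp6 (reference 81.5%) and -22.4 at Tuba3b (reference 81.9%).

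**Figure D4:**
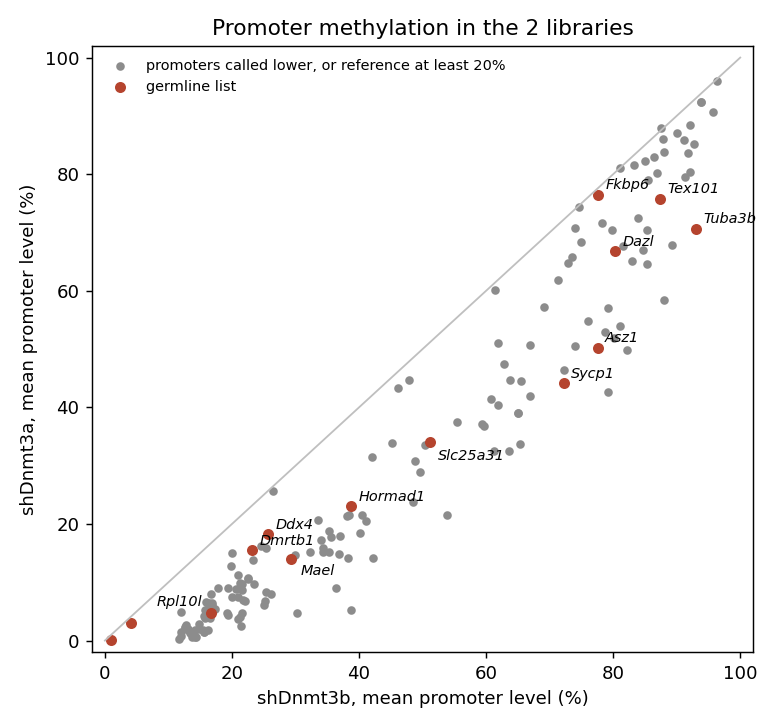
Mean promoter methylation (%) in shDnmt3a against shDnmt3b for promoters with a reference of at least 20% or called lower (grey) and for the 14 measured genes of the germline list (red, named where shDnmt3b is above 10%). The line marks equal levels. Nearly all points lie below it, Asz1 and Sycp1 far below and Fkbp6 close to it.

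Levels of single cytosines show how even the difference was within a promoter. Over the 11 cytosines of Asz1, shDnmt3a ranged from 37.0% to 71.7% and shDnmt3b from 63.3% to 92.4%, and the difference from -35.7 to -18.3 points. In Slc25a31, 17 of 18 cytosines were lower in shDnmt3a, by up to -42.3 points at 26 bases before the start site, while 1 at 11 bases after it was higher by 8.2. The sites with the least difference there, -1.4 points at 52 and at 12 bases before the start, lay among sites with far wider ones. In Hormad1 both CACGT cytosines were nearly unmethylated in both libraries (4.0% against 10.4%, and 6.0% against 8.3%), while a TGCGC site 21 bases before the start stood at 42.0% against 72.9%. So neighbours within 40 bases in this promoter differed both in level and in the gap between the libraries.

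The Btbd18 promoter, which shares its cytosines with that of Ctnnd1 on the other strand, stood at 39.1% in shDnmt3a and 65.1% in shDnmt3b, with 9 of 10 cytosines lower. Its widest single difference was -44.7 points, 29 bases before the start site, and its narrowest 0.2 points, 56 bases before it. Cck stood at 49.8% and 82.2% (-32.4 points), with shControl at 66.0% and the double knockdown at 63.5%. All 6 Cck cytosines were lower, by 20.8 to 39.3 points. Here shControl lay about midway between the 2 knockdowns.

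**Figure D5:**
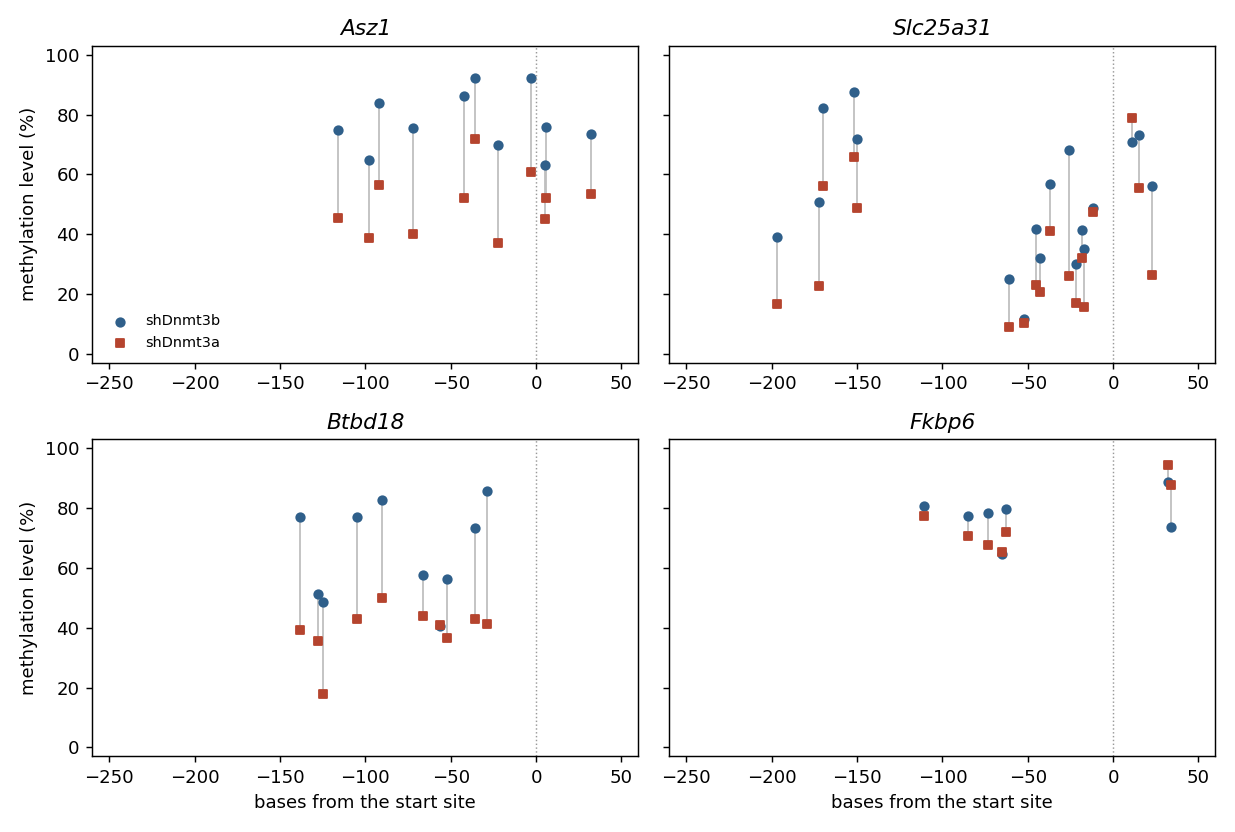
Methylation level (%) of each measured cytosine in shDnmt3a (red squares) and shDnmt3b (blue circles) by bases from the RefSeq start site (dotted line) at Asz1, Slc25a31, Btbd18 and Fkbp6. Grey lines join the 2 levels of a cytosine. At Asz1 all 11 red squares lie below their blue circles, by 18.3 to 35.7 points. At Fkbp6 the pairs lie close, and both cytosines after the start site, the only ones on the plus strand, are higher in shDnmt3a.

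Among all promoters, the 15 with the widest differences were again chosen for extreme values. The widest was at a start site of Smarca5, a nucleosome-remodelling ATPase, with 42.6% in shDnmt3a and 79.3% in shDnmt3b over 5 cytosines. There shControl, at 61.4%, lay about midway between these 2 libraries, with 74.2% in shTet1_Tet2 and 82.3% in the double knockdown. These 5 cytosines lie close together on the minus strand, so they may come from the same reads. Topaz1, a spermatocyte protein, stood at 32.5% and 61.3%, and Tmprss12, a testis serine protease, at 21.5% and 53.9%. Dnajc5g, a testis co-chaperone whose promoter shares cytosines with Slc30a3, stood at 54.0% and 81.0%. The others were P2rx1, an ATP-gated ion channel (33.7% and 65.3%), the long noncoding RNA Plut (32.6% and 63.6%), Pttg1, Sycp1, Asz1, Cck and the predicted genes Gm32465, Gm36794, Gm38887, Gm44140 and Gm2511. At Pttg1, the mitotic securin, shDnmt3b (42.2%) was the outlying library: shDnmt3a read 14.2%, shControl 16.7% and the double knockdown 13.5%. Gm32465 had 5.31% in shDnmt3a and 38.8% in shDnmt3b, and its reference of 22.6% lay about midway.

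The remaining lists held 0 promoters past 10 points. The measured members numbered 5 of 34 for imprinted genes, 4 of 26 for pluripotency, 7 of 40 for lineage factors, 11 of 21 for the methylation machinery, 1 of 13 for trophoblast and 4 of 16 for housekeeping genes. Nearly all were unmethylated in both libraries. The pluripotency promoters, Sox2 and Fgf4 among them, were at most 0.15% in shDnmt3a and 0.157% in shDnmt3b, and no promoter of the methylation machinery was above 0.8% in shDnmt3a or 0.72% in shDnmt3b, Dnmt3a itself being at 0% in both. Foxa2, an endoderm transcription factor, had the widest difference among lineage factors, 2.94% against 9.93% (-6.99 points, 8 of 8 cytosines lower). Ascl2, of the trophoblast list, stood at 0.887% and 2.99%. The imprinted list's 1 methylated member was Fkbp6, which is also on the germline list.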

How the data were processed

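RRBS levels of 6 libraries were used, 1 per group. TruSeq libraries of MspI fragments were bisulfite converted, per the labels' protocols. CASAVA 1.8, Bismark 0.10.1 and mm9 appear in the submitters' processing notes. A coverage minimum and trimming were not given in the sources used here. The values deposited by the authors are methylation fractions from 0 to 1 per cytosine and strand with 5 bases of context and no counts, so each cytosine has the same weight whatever its coverage. They were turned into percent, and differences are in percentage points.

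Python 3.11.15, pandas 2.3.3, NumPy 2.4.6 and matplotlib 3.10.9 were used. Clusters joined cytosines at most 100 bp apart. Level-standardised values average over steps of the reference level with equal weights in each group. Contexts on the minus strand were reverse-complemented. Promoter windows of RefSeq GRCm38.p6 (250 bases before to 50 after the start) were placed on mm9 positions by exact match of at least 5 listed contexts and their spacing, with no conversion of coordinates. Of 31396 windows 7425 were placed, after 13 out of order with their neighbours were dropped. As a check, 6 windows found a place on the next chromosome instead. Procedures were tested on simulated data.

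Named items were the 6 clusters and 15 promoters with the widest differences each way, and list genes past 10 points. Clusters higher by 10 to 20 points were added, since 1 passed 20. Topaz1, Cck, Btbd18, Fkbp6 and the single contexts were described in more detail after their values were seen. The members and lists were chosen with earlier results of these data known. The labels name no separate cultures. The shDnmt1 sample's title reads Dnmt1a and its treatment Dnmt1, which was followed. The sex chromosomes were left out.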

Additional observations from a re-analysis of the deposited data

How the results depend on the processing

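No paired analysis was possible because each group is 1 library, and none could be left out. Of 54 alternatives 0 reversed a direction, 25 stayed within the spread and 29 moved by more. The spread is that over autosomes, but 1.5 times for counts and 0.833 points for the strand percentage. Counts and the strand percentage have no sign to reverse, so the 0 bears only on the other alternatives. The mean difference was -4.47 points over cytosines with a level in all 6 libraries and -4.84 with clusters weighing alike. With classes from shControl alone, low cytosines differed by -1.22 points and intermediate ones by -16.7. From shTet1_Tet2 alone, low, intermediate and high ones differed by -0.961, -16.2 and -7.97 points, and from the mean of the compared libraries low and high ones by -1.38 and -5.34.

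At 10 and 30 points, 113217 and 19125 single cytosines were lower and 7590 and 401 higher. Lower clusters numbered 5710 at 10 points, 407 at 30, 5418 with at least 3 cytosines, 227 with at least 10 and 1156 over all 6 libraries, where higher ones numbered 9, 0, 17, 0 and 0. The pyrimidine contrast after the CpG was -0.627 points without CCGG sites, -1.03 over all 6 libraries and -4.29 in intermediate steps. The purine contrast before it was -0.575 without CCGG sites and -4.11 in intermediate steps. Lower clusters chosen on the plus strand at 10 points were lower on the minus strand in 97.0% of cases, against 98.6% at 20 points. The cause of these shifts was not tested. Alternatives in intermediate steps, by strand, without CCGG sites for density and distance, and standardised for distance were chosen after seeing the data. Promoters with at least 3 cytosines gave 85 genes lower by 15 points. Unknown depth limits all values at single cytosines, and 1 library per group limits every comparison.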
